A study of Mus musculus with 4 samples.

Results

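Lipid-associated macrophage genes are the genes by which lipid-laden macrophages of fatty tissue, plaques and fatty liver are usually recognised. The 10 members, chosen by symbol, were Trem2, Gpnmb, Spp1, Cd63, Cd9, Fabp5, Lpl, Itgax, Mmp12 and Gdf15, out of 54456 gene symbols in the matrices, and each symbol matched 1 Ensembl gene. The study profiled single cells of the mouse liver other than hepatocytes (C57BL/6J, 30 weeks old) by droplet 3′ RNA sequencing; exercise and a high fat diet (HFD) were the interventions. The groups are labelled HFD_EXE, HFD_sed, E and S, with letters that the labels do not spell out, and each has 1 library. The libraries described here are HFD_EXE and HFD_sed, which carry the diet in their names, and S, which does not; the library E was not analysed here. With 1 library a group, differences between groups rest on no replicates, no test was run, and every interval below covers counting error only.

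Macrophages in lipid-rich tissue take up lipoproteins, dead cells and free fatty acids, break them down in lysosomes and turn on a shared set of genes as they do so. Trem2, a lipid-sensing surface receptor that signals through Tyrobp, is known as a receptor on which this programme depends in mouse fat. In the liver the same genes have been described both in monocyte-derived macrophages and in part of the Kupffer cells, the resident macrophages of the sinusoid, while several of them are also used by other cells, such as Spp1 by bile duct cells.

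Spp1 and Gpnmb are shown first, because they were found together in single monocyte-like cells, and Mmp12, because it stood highest in a different macrophage class. The 250 bases before an annotated start site (RefSeq, GRCm38.p6, + strand; the matrices themselves use GRCm39) lie at chr5:104434861-104435110 for Spp1, chr6:49036268-49036517 for Gpnmb and chr9:7344147-7344396 for Mmp12. The capitals mark GAGGAAGT, a purine-rich core of the kind bound by the myeloid factor PU.1, or its complement.
Spp1: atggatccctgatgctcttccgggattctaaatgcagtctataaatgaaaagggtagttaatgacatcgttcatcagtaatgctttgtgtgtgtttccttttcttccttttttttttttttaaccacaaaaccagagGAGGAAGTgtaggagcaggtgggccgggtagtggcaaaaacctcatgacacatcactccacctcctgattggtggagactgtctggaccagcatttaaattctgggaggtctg
Gpnmb: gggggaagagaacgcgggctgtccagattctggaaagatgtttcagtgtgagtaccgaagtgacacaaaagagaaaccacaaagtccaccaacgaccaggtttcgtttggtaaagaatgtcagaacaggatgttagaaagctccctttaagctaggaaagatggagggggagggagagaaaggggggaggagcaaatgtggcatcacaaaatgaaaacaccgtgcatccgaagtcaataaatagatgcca
Mmp12: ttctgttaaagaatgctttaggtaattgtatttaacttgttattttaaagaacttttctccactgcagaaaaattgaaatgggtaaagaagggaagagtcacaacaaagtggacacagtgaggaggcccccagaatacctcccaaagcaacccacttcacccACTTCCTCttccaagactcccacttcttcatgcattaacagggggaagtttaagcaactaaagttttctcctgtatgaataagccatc
The match began 113 bases before the Spp1 start and 88 bases before the Mmp12 start, and the Gpnmb window held none. Searched on both strands, GAGGAAGT was present in 2.44% of all 32851 mouse windows of the same length, so 2 windows with it are a description and not a site. Windows were found for 8 of the 10 members. TGACTCA, the letters read by AP-1 factors, was in the Itgax window and in a second Mmp12 window, and in 4.46% of all windows. CATGTG, one of the letter runs read by MITF and its relatives, was in the Cd9 window and the second Mmp12 window and in 12.3% of all, and CACGTG was in a second Gdf15 window and in 6.02% of all. No searched motif overlapped another in these windows.

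The 3 matrices held 60901242, 63456399 and 84666844 unique molecular identifiers (UMIs, one per captured transcript) in HFD_EXE, HFD_sed and S. The cells that passed the filters numbered 10172, 10740 and 10212, their median depth was 4917.5, 4179.5 and 6150 UMIs, and between 30 and 43 cell barcodes were shared by any 2 of the 3 libraries. Cells were clustered with the 10 members left out and named from fixed markers, so the classes carry the suffix -like. Kupffer-like cells numbered 924 in HFD_EXE, 679 in HFD_sed and 1936 in S, monocyte-like cells 130, 1266 and 177, and other macrophage-like cells 78, 395 and 45. The other macrophage-like cells also carried Kupffer markers, 8 of which summed to 2236, 7843 and 4130 CPM (counts per 1000000 UMIs of the class), against 18808 CPM in the Kupffer-like cells of HFD_EXE. A monocyte-like subset with macrophage markers made up 51, 749 and 37 of the monocyte-like cells. Most Kupffer-like cells fell into clusters of 1 library each (757 of 924 in HFD_EXE, 432 of 679 in HFD_sed, and 1032 and 775 of 1936 in S), and with 1 library a group the library and the group cannot be told apart. Depth differed too: the median Kupffer-like cell had 3179 UMIs in HFD_EXE, 2196 in HFD_sed and 8878.5 in S.

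Across classes, the members did not share 1 home. Levels are CPM summed over the cells of a class. Trem2, Mmp12 and Gdf15 were highest in the other macrophage-like cells, Lpl in Kupffer-like cells, and Gpnmb in monocyte-like cells, on the mean of the 3 libraries; in single libraries Gdf15 was higher in hepatocyte-like cells of HFD_EXE (101 CPM) and in cholangiocyte-like cells of S (75.9 CPM). The remaining members were highest in other cells: Spp1 and Cd63 in cholangiocyte-like cells, Cd9 in neutrophil-like cells, Fabp5 in liver sinusoidal endothelial (LSEC)-like cells and Itgax in dendritic-like cells. That order did not hold in every library. Cd63 was highest in neutrophil-like cells in HFD_sed (442 CPM), Itgax in NK/ILC1-like cells in HFD_EXE (235 CPM), Cd9 in cholangiocyte-like cells in S (425 CPM) and Fabp5 in monocyte-like cells in S (305 CPM). Cholangiocyte-like cells had 15833, 17787 and 11363 CPM of Spp1 in HFD_EXE, HFD_sed and S, and these 34, 34 and 32 cells held 91.4%, 54.1% and 95.02% of the Spp1 UMIs of all kept cells. Trem2 and Lpl lay mostly in phagocytes: the 3 phagocyte classes held 74.2% of the Trem2 UMIs in HFD_EXE, 84.1% in HFD_sed and 80.7% in S, and 77.4%, 85.0% and 81.3% of the Lpl UMIs.

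**Figure D1:**
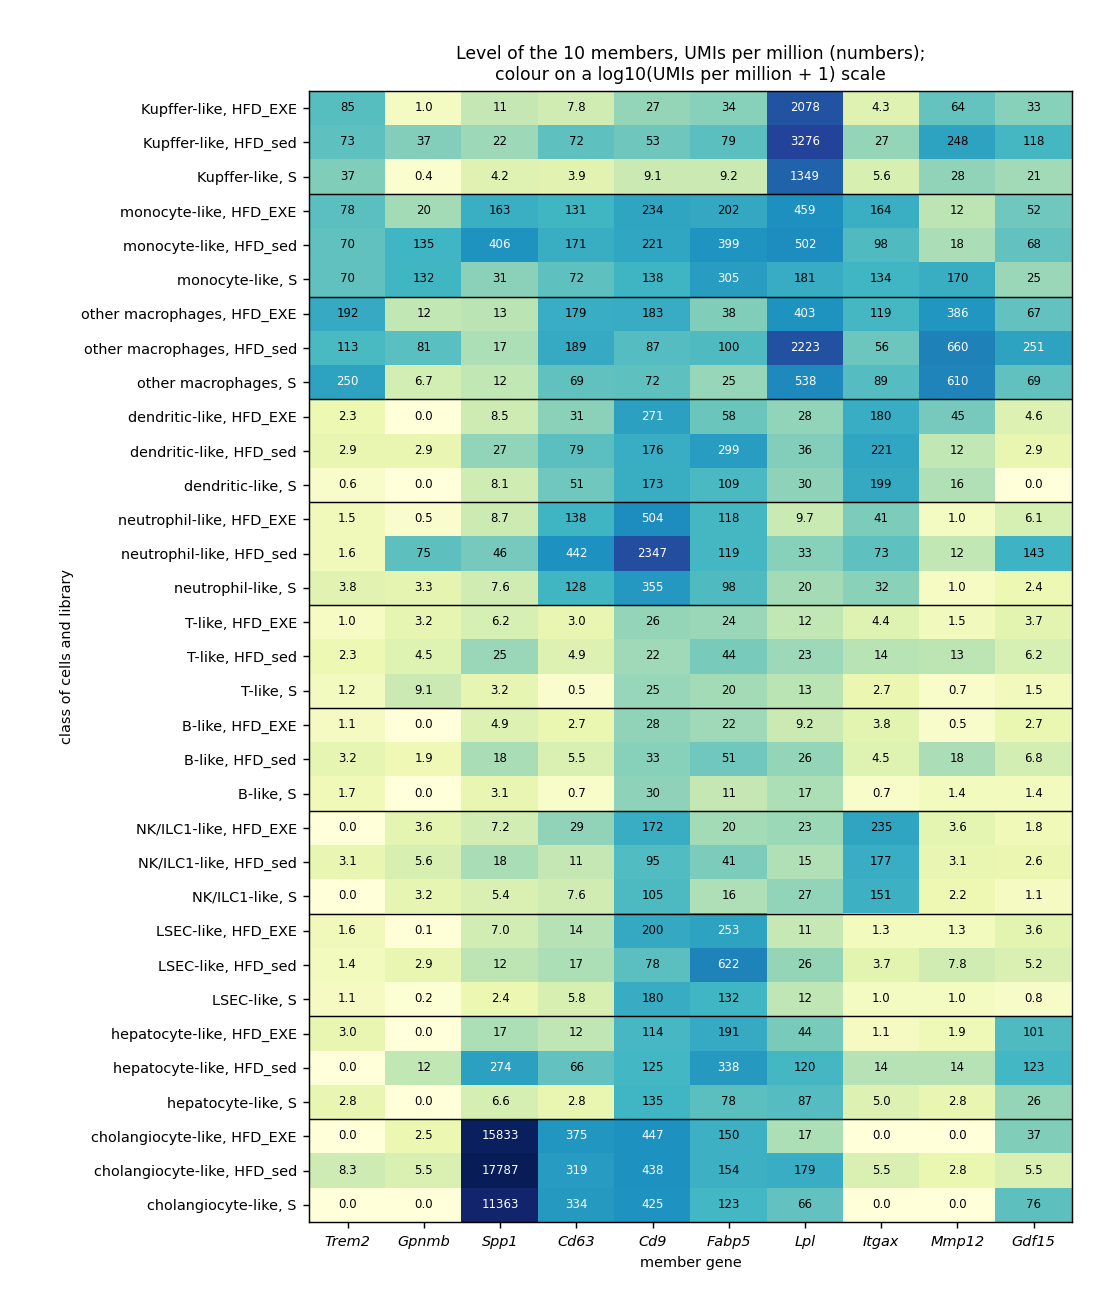
Level of each member (columns) in each class of cells and library (rows), printed as CPM and coloured on a log10 scale. Trem2 stands out in the 3 phagocyte classes, Spp1 in cholangiocyte-like cells (11363 CPM or more) and Cd9 in the neutrophil-like cells of HFD_sed (2347 CPM).

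Trem2, the receptor of the set, had 78.3 CPM in HFD_EXE, 70.2 CPM in HFD_sed and 69.6 CPM in S in monocyte-like cells, and the 3 counting intervals overlapped. In S 24 of the 105 UMIs were in 1 cell, and without the 2% of cells with most Trem2 the level was 56.1 CPM in HFD_sed against 35.6 CPM in S (log2 ratio 0.66, 0.24 to 1.10). Kupffer-like cells had 84.6 CPM (338 UMIs) in HFD_EXE and 72.5 CPM (188 UMIs) in HFD_sed, against 37.3 CPM (685 UMIs) in S, so both high fat diet libraries stood above S and overlapped each other. In the other macrophage-like cells S was instead the highest, with 192 CPM in HFD_EXE and 113 CPM in HFD_sed, against 250.4 CPM in S. The level in S rests on 45 cells, in 37.8% of which (23.8 to 53.5%) Trem2 was found once cells were thinned to 2000 UMIs.

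Gpnmb, a lysosomal and surface glycoprotein of lipid-laden macrophages, was rare in Kupffer-like cells. Their 924 cells in HFD_EXE held 4 UMIs (1.001 CPM) and the 679 cells in HFD_sed 95 UMIs (36.7 CPM), against 7 UMIs in 1936 cells in S (0.38 CPM). In monocyte-like cells its level was 19.6 CPM in HFD_EXE and 135 CPM in HFD_sed, against 132 CPM in S. The level of S is that of few cells: 104 of its 199 UMIs came from 1 cell. In HFD_sed the 1370 UMIs were spread over 189 cells, 22 of which held 50% of them, and Gpnmb was found in 9.24% of thinned cells (7.68 to 11.003%), against 2.27% (0.62 to 5.72%) in S.

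Itgax, the integrin alpha chain known as CD11c, and the tetraspanins Cd9 and Cd63, which organise membrane and lysosomal proteins, were all present in monocyte-like cells of every library. Itgax had 164 CPM in HFD_EXE, 97.9 CPM in HFD_sed and 134 CPM in S in those cells, so HFD_sed was the lowest of the 3. In Kupffer-like cells Itgax stood at 4.26 CPM in HFD_EXE and 26.6 CPM in HFD_sed, against 5.61 CPM in S. Cd63 in Kupffer-like cells had 7.76 CPM in HFD_EXE and 72.2 CPM in HFD_sed, against 3.86 CPM in S, which after Gpnmb was the widest gap between HFD_sed and S in that class. Cd9 had 26.8, 53.3 and 9.09 CPM in Kupffer-like cells of HFD_EXE, HFD_sed and S. T-like cells had 26.1 CPM of Cd9 in HFD_EXE and 25.0 CPM in S, so the Kupffer-like level was level with theirs in HFD_EXE and below it in S.

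The lipid-handling members are Lpl, the secreted lipase that frees fatty acids from lipoproteins, and Fabp5, which carries fatty acids inside the cell. Lpl marked nearly every Kupffer-like cell: it was found in 90.0% of thinned cells in HFD_EXE and 94.96% in HFD_sed, against 80.4% in S, at 2078, 3276 and 1349 CPM. In the other macrophage-like cells Lpl had 403 CPM in HFD_EXE and 2223 CPM in HFD_sed, against 538 CPM in S. The Kupffer gene Cd5l had 680.2 CPM in HFD_EXE and 3423 CPM in HFD_sed, against 1506 CPM in S, in the same cells, and the part of Kupffer transcripts in the Lpl difference was not tested. Fabp5 had 202 CPM in HFD_EXE and 399 CPM in HFD_sed, against 305 CPM in S, in monocyte-like cells. Of the 460 Fabp5 UMIs of S, 190 were in 1 cell.

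The secreted members divided between classes. Spp1, which encodes the matrix protein and cytokine osteopontin, had 163 CPM in HFD_EXE and 406 CPM in HFD_sed, against 30.5 CPM in S, in monocyte-like cells, and nearly all of it lay in the subset with macrophage markers (4071 of 4103 UMIs in HFD_sed). In HFD_EXE 96 of the 183 Spp1 UMIs were in 1 cell, and without the 2% of cells with most Spp1 the level was 17.5 CPM in HFD_EXE and 122 CPM in HFD_sed, against 2.06 CPM in S. The macrophage elastase gene Mmp12 was instead at 386 CPM in HFD_EXE, 660.1 CPM in HFD_sed and 609.9 CPM in S in the other macrophage-like cells, and at 63.6, 248 and 28.0 CPM in Kupffer-like cells. In the other macrophage-like cells of S 219 of the 363 Mmp12 UMIs were in 1 cell, and without the 2% of cells with most Mmp12 the level was 204 CPM in HFD_EXE and 318 CPM in HFD_sed, against 247 CPM in S. In monocyte-like cells of HFD_EXE and HFD_sed it was at 12.5 and 17.9 CPM. Gdf15, a stress-induced cytokine gene, had 67.2 CPM in HFD_EXE and 251 CPM in HFD_sed, against 68.9 CPM in S, in the other macrophage-like cells. Kupffer-like cells had 33.3 CPM of Gdf15 in HFD_EXE and 118 CPM in HFD_sed, against 21.1 CPM in S, so HFD_sed was the highest in both classes.

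**Figure D2:**
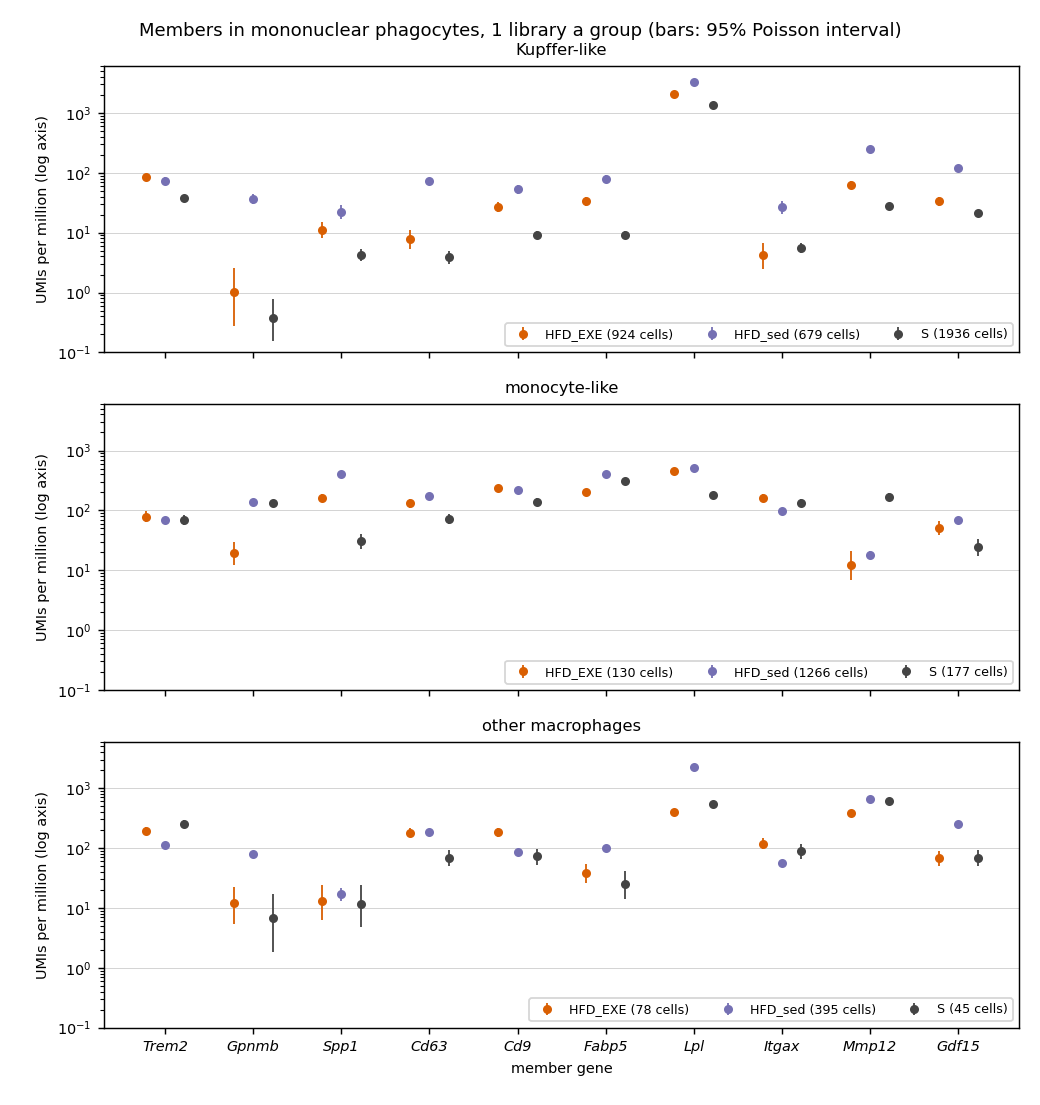
Members in Kupffer-like, monocyte-like and other macrophage-like cells as CPM on a log axis, 1 point per library with its 95% Poisson interval (counting error only). In Kupffer-like cells HFD_sed lies above S for all 10 members, whereas Trem2 in other macrophage-like cells (113 CPM in HFD_sed against 250.4 CPM in S) lies below it.

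Diet was compared as HFD_sed over S, and a member was called where its ratio was at least 1.5-fold either way with a counting interval that left out 1. In Kupffer-like cells all 10 members were higher in HFD_sed, against 7.29% of the 13002 genes with at least 20 UMIs in the 2 libraries together. Their median log2 ratio was 2.52, against -0.01 over all measured genes. The members were chosen with earlier results of these data known, so this count is a description. The smallest difference was that of Trem2, 72.5 CPM in HFD_sed against 37.3 CPM in S (1.95-fold, 1.65 to 2.29), and the largest that of Gpnmb (log2 ratio 6.59, 5.49 to 7.94). Of the 10, Gpnmb, Spp1 and Fabp5 had detection shares in Kupffer-like cells whose intervals did not lie above those of B-like cells in any of the 3 libraries (given with the free RNA values), so their difference is not read as one in expression. All 10, these 3 among them, were also called higher without the low-UMI cluster, against 7.35% of 12949 measured genes. That cluster held 31.8% of the Kupffer-like cells of HFD_sed and 6.15% of those of S.

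The other 2 classes were less uniform under the same comparison. In monocyte-like cells 5 members were higher in HFD_sed (Spp1, Cd63, Cd9, Lpl and Gdf15), against 6.58% of all measured genes, and 1 was lower, against 10.5%. The largest difference was that of Spp1, 406 CPM in HFD_sed against 30.5 CPM in S (log2 ratio 3.73, 3.31 to 4.19). Mmp12 was the lower one, with 17.9 CPM in HFD_sed against 169.8 CPM in S, and 232 of the 256 UMIs of S were in 1 cell. In other macrophage-like cells 5 members were higher in HFD_sed (Gpnmb, Cd63, Fabp5, Lpl and Gdf15), against 6.68% of measured genes, and 2 were lower (Trem2 and Itgax), against 6% of them. Gpnmb had the largest ratio there, 80.6 CPM in HFD_sed against 6.72 CPM in S, where 4 UMIs were counted (log2 ratio 3.58, 2.22 to 5.47).

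Exercise on the diet was compared as HFD_EXE over HFD_sed, which shares its HFD_sed library with the diet comparison. In Kupffer-like cells no member was higher and 9 were lower in HFD_EXE, against 9.42% of 10858 measured genes in the higher direction and 5.87% in the lower one. The median log2 ratio was -1.53 over the members and 0.01 over all genes. Trem2 was the exception, at 84.6 CPM in HFD_EXE and 72.5 CPM in HFD_sed (log2 ratio 0.22, -0.04 to 0.49). Among the 9, the log2 ratio lay between -5.19 for Gpnmb and -0.66 for Lpl, where Gpnmb, Spp1 and Fabp5 are again not read as expression. Under 9 other settings of the processing the Lpl ratio lay between -0.74 and -0.003, so at its weakest Lpl hardly differed. Set against S, HFD_EXE was higher for 8 of 9 measured members and lower for 0, against 11.6% and 9.45% of 13169 measured genes, and Itgax was not called, with 4.26 CPM in HFD_EXE against 5.61 CPM in S. Of the 8, only Trem2, Lpl, Mmp12 and Gdf15 were found in Kupffer-like cells above the background of B-like cells in both libraries, and among these 4 the log2 ratio of HFD_EXE over S lay between 0.62 for Lpl and 1.18 for Trem2. The other 4 (Spp1, Cd63, Cd9 and Fabp5) are not read as differences in expression.

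In monocyte-like cells 1 member was higher in HFD_EXE than in HFD_sed, against 5.83% of measured genes, and 3 were lower, against 4.29%. The higher one was Itgax (log2 ratio 0.74, 0.51 to 0.97), and the lower ones were Gpnmb (-2.79, -3.47 to -2.19), Spp1 (-1.32, -1.54 to -1.10) and Fabp5 (-0.98, -1.18 to -0.79). In other macrophage-like cells 3 were higher (Trem2, Cd9 and Itgax), against 8.09% of measured genes, and 5 were lower (Gpnmb, Fabp5, Lpl, Mmp12 and Gdf15), against 8.94%. Lpl had 403 CPM in HFD_EXE against 2223 CPM in HFD_sed there (log2 ratio -2.46, -2.63 to -2.30). Gpnmb had 11.9 CPM in HFD_EXE against 80.6 CPM in HFD_sed in these cells, and was lower in them and in monocyte-like cells.

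Monocyte-like cells could be split further. In the subset with macrophage markers, 3 members were higher in HFD_sed than in S, against 7.48% of measured genes, and 5 were lower, against 8.77%, among them Gpnmb at 209 CPM in HFD_sed against 404 CPM in S. In HFD_EXE over HFD_sed 1 was higher (Itgax), against 5.06%, and 3 were lower (Gpnmb, Spp1 and Fabp5), against 5.32%. That subset had 749 cells in HFD_sed and 37 in S. The share of its thinned cells with at least 3 members was 30.0% (17.9 to 44.6%) in HFD_EXE, 28.0% (24.7 to 31.4%) in HFD_sed and 24.3% (11.8 to 41.2%) in S, and these intervals overlapped. The subset was 0.501% of kept cells in HFD_EXE and 6.97% in HFD_sed, against 0.362% in S. Classical and nonclassical monocyte-like cells each carried other members. Classical cells had Lpl at 200.1 CPM in HFD_EXE and 127 CPM in HFD_sed, against 137 CPM in S, and Trem2 at 53.0 CPM and 64.7 CPM, against 43.7 CPM. Gpnmb was at 0 in HFD_EXE and 6.30 CPM in HFD_sed, against 1.90 CPM in S, in the classical cells. Nonclassical cells had Cd9 at 377 CPM in HFD_EXE and 351 CPM in HFD_sed, against 227 CPM in S, and Itgax at 130.4 CPM and 122 CPM, against 162 CPM.

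Raw UMIs per cell showed how few cells stood behind some of these levels. Of the 95 Gpnmb UMIs in Kupffer-like cells of HFD_sed, 45 were in 1 cell, and the 5 cells with most Gpnmb held 83.2% of them. The same cell held 91 of the 206 Fabp5 UMIs and 17 of the 187 Cd63 UMIs of that class, with 17478 UMIs in all, against a class median of 2196. In S, 1 monocyte-like cell with 30543 UMIs had all 10 members, with 190 UMIs of Fabp5, 70 of Gpnmb, 40 of Cd63 and 24 of Trem2. In HFD_sed, 1 monocyte-like cell gave 521 Spp1 UMIs and 60 Gpnmb UMIs, and 6.94% of its 10628 UMIs were members. Each of these cells lay under the doublet score threshold that was used.

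The counting interval takes every UMI as separate and does not cover this spread between cells. Each comparison was therefore repeated without the 2% of cells of each library with most UMIs of the member, a choice made after these values were seen. In Kupffer-like cells 9 of 9 measured members were still higher in HFD_sed than in S, against 3.59% of 10494 measured genes trimmed in the same way (26.3% were lower), while Gpnmb was left with 3 UMIs in HFD_sed and 0 in S, too few to measure. In HFD_EXE over HFD_sed, 7 of 9 were lower, against 6.52% of genes (13% were higher), and Fabp5 no longer passed (27.0 CPM in HFD_EXE against 36.1 CPM in HFD_sed). In monocyte-like cells, 8 members were higher in HFD_sed than in S, against 9.22% of genes, and none was lower, against 11.2%. Gpnmb then had 63.1 CPM in HFD_sed against 4.26 CPM in S (log2 ratio 3.89, 2.76 to 5.34), Fabp5 223 CPM against 39.7 CPM, and Mmp12 5.17 CPM against 5.63 CPM. Within the subset with macrophage markers the same trim gave a mixed result. Spp1 and Lpl were higher in HFD_sed than in S. Trem2, Gpnmb (124 against 200 CPM), Itgax and Mmp12 were lower, and the other members passed neither way. No share over all genes was computed for that trim. The subset was 749 of 1266 monocyte-like cells in HFD_sed and 37 of 177 in S, and the part of this mix was not tested. In HFD_EXE over HFD_sed, 1 member of the monocyte-like cells was higher, against 6.09% of genes, and 5 were lower (Gpnmb, Spp1, Cd63, Fabp5 and Gdf15), against 5.62%. Of the 58 Gdf15 UMIs of HFD_EXE, 50 were in 1 cell, and without such cells Gdf15 had 3.68 CPM in HFD_EXE against 24.9 CPM in HFD_sed.

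**Figure D3:**
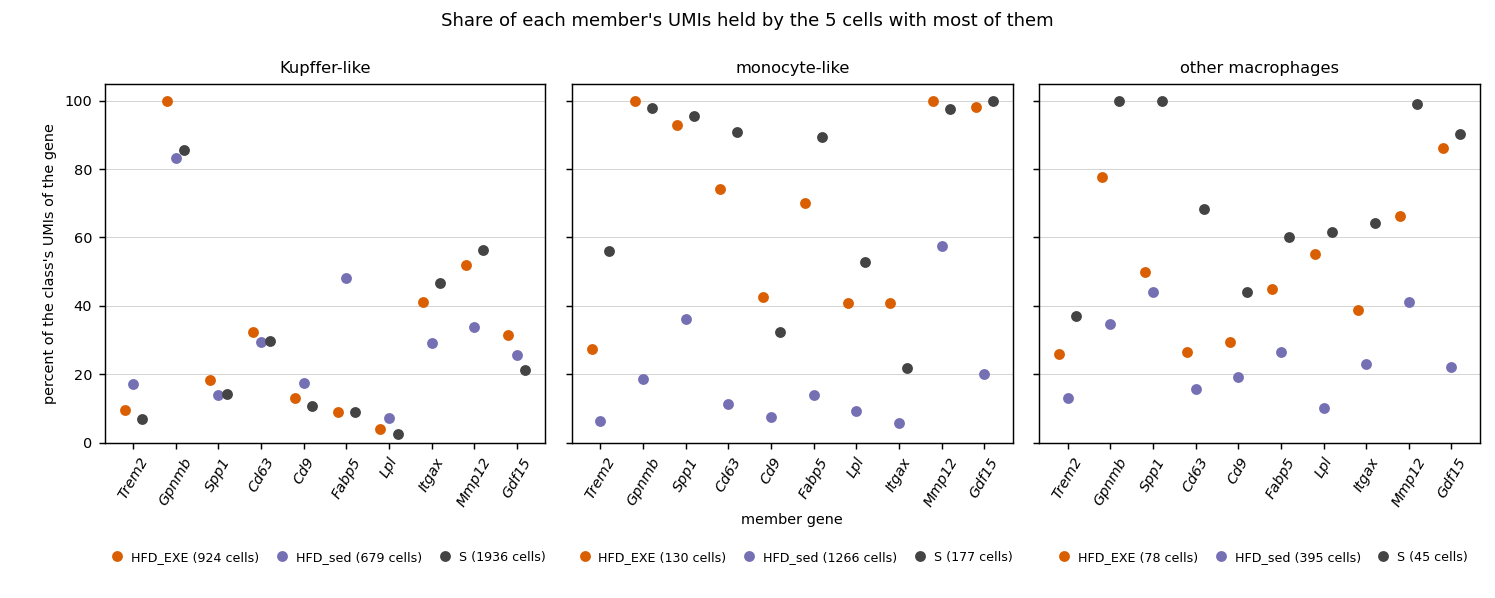
Share of each member's UMIs that lay in the 5 cells with most of them, in percent, for each phagocyte class and library; few cells or few UMIs raise it. Gpnmb in Kupffer-like cells of HFD_sed (95 UMIs) stands at 83.2%, and in monocyte-like cells Gpnmb stands at 100% in HFD_EXE and 18.5% in HFD_sed, against 98.0% in S.

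Detection of several members in the same cell was compared after each cell was thinned to 2000 UMIs, which left out 291, 322 and 198 shallower Kupffer-like cells in HFD_EXE, HFD_sed and S. At least 3 of the 10 members were found in 8.33% of phagocytes of HFD_EXE (70 of 840), 18.4% of HFD_sed (361 of 1959) and 1.63% of S (32 of 1959). Without thinning the shares were 19.4%, 40.7% and 12.6%. Within Kupffer-like cells the thinned shares were 5.69% (4.01 to 7.79%) in HFD_EXE and 14.6% (11.1 to 18.7%) in HFD_sed, against 1.04% (0.61 to 1.63%) in S, so the 3 intervals did not overlap. Monocyte-like cells had 12.4% (7.26 to 19.4%) in HFD_EXE and 17.6% (15.5 to 19.8%) in HFD_sed, against 5.11% (2.36 to 9.49%) in S. Other macrophage-like cells had 23.1%, 24.8% and 11.1%, with intervals that overlapped.

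Cells with 5 or more members were rare. They were 0.71% of phagocytes in HFD_EXE (6 cells), 4.90% in HFD_sed (96 cells) and 0.36% in S (7 cells), and 64 of the 96 in HFD_sed were monocyte-like cells with macrophage markers. Lpl alone set much of the share of Kupffer-like cells with few members: with Lpl left out of the count, at least 3 of the other 9 were found in 3.81% of phagocytes of HFD_EXE and 11.6% of HFD_sed, against 0.61% of S. The order of the libraries was the same.

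**Figure D4:**
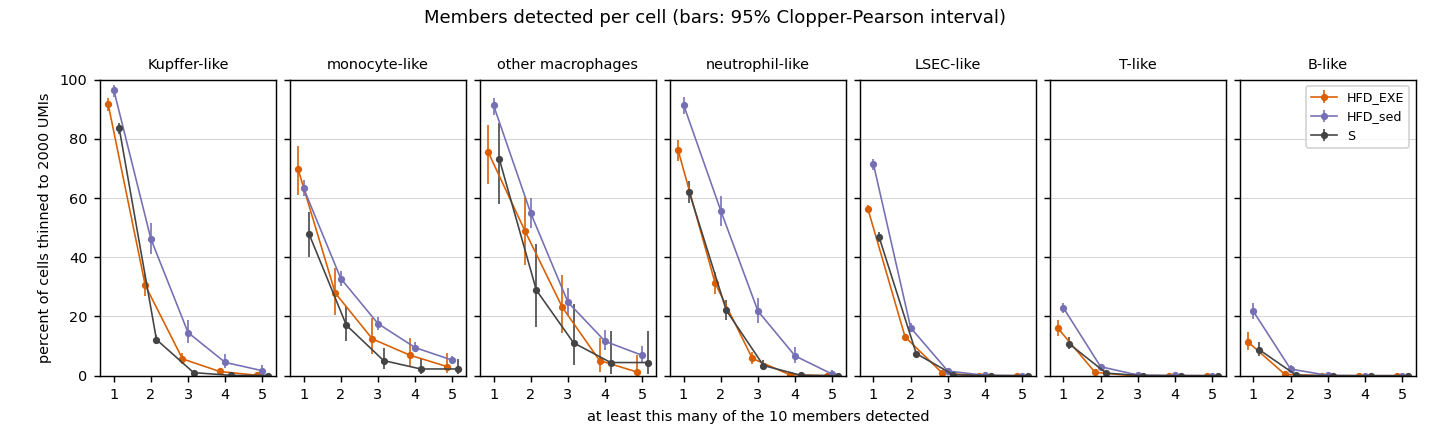
Percent of cells, thinned to 2000 UMIs, in which at least 1 to 5 of the 10 members were detected, with 95% Clopper-Pearson intervals, by class and library. At 3 or more members HFD_sed is above S in Kupffer-like (14.6% against 1.04%) and neutrophil-like cells (21.9% against 3.44%), and T-like and B-like cells stay at or near 0.

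Pairs of members were found in the same cell more often than their separate shares would give in monocyte-like cells of HFD_sed. Of 44 pairs with at least 2 cells expected, 29 reached 1.5 times the expected number, and the median ratio was 1.83. The highest ratio was that of Gpnmb and Cd63, found together in 58 cells against 14.3 expected (4.05 times), followed by Gpnmb and Spp1 in 46 cells against 11.9 expected (3.86 times). Within the subset with macrophage markers the same pairs were at 2.62 and 2.64 times, so part of the ratio was that between subsets. These are descriptions of cells of 1 library, in which deeper or more similar cells also share genes.

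In the other macrophage-like cells of HFD_sed, 16 of 36 pairs reached 1.5 times. Gpnmb and Cd63 led again with 15 cells against 4.32 expected (3.47 times), and Cd9, Itgax and Mmp12 were found together in pairs at 2.71 to 2.76 times. Kupffer-like cells of HFD_sed had 9 of 25 pairs at that ratio and a median of 1.05. Their leading pair was Cd63 and Mmp12, in 9 cells against 2.59 expected, while Spp1 and Gdf15 were found together in 1 cell against 2.37 expected. In LSEC-like cells of HFD_sed 2 of 18 pairs reached 1.5 times and the median was 0.96. The libraries HFD_EXE and S had 14 and 7 pairs with enough cells among monocyte-like cells, with 6 and 3 of them at 1.5 times or more.

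**Figure D5:**
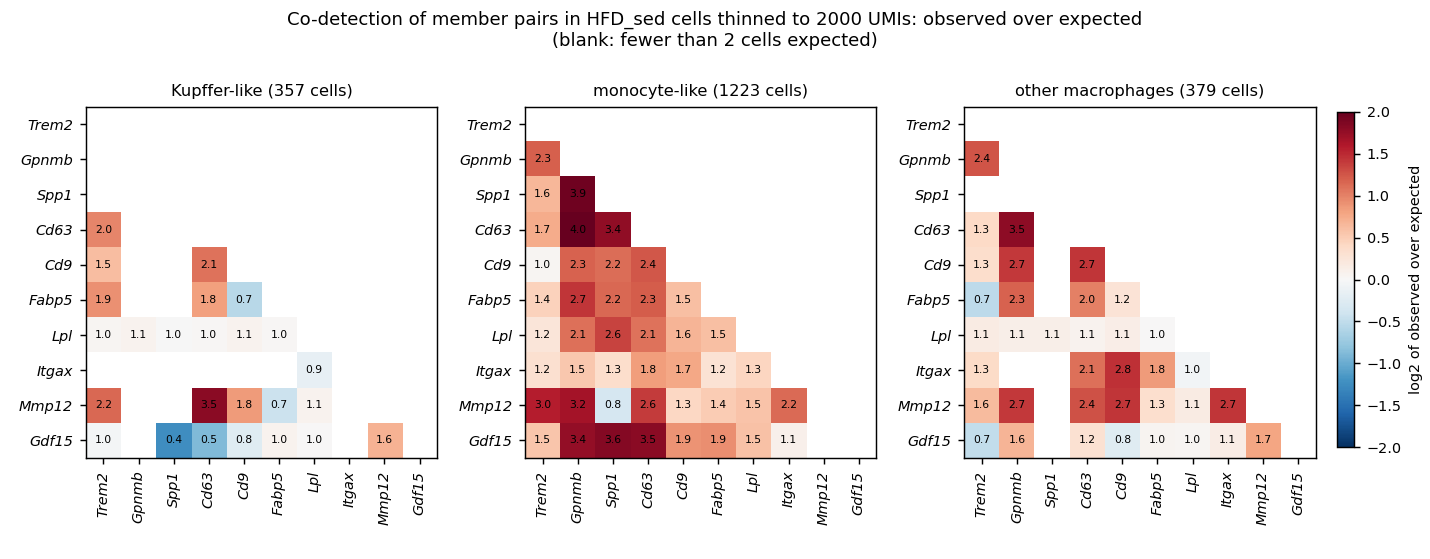
Cells of HFD_sed with both members of a pair over the number expected from the separate shares, in Kupffer-like, monocyte-like and other macrophage-like cells thinned to 2000 UMIs; numbers are ratios and colour is their log2. Monocyte-like cells show the most pairs above 1.5 (29 of 44), with Gpnmb and Cd63 at 4.05.

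Free RNA in a droplet gives UMIs to cells that do not express a gene, and T-like, B-like, NK/ILC1-like and LSEC-like cells were used to gauge it. At least 3 members were found in 0 of 704 T-like cells in HFD_EXE (interval up to 0.52%) and in 0.22% in HFD_sed. In S they were found in 0 of 926 T-like cells (up to 0.40%). B-like cells gave 0 of 463 in HFD_EXE (up to 0.79%), 0.11% in HFD_sed and 0 of 667 in S (up to 0.55%). Their median depths were 5072, 3145 and 6063 UMIs for T-like and 3440, 2854.5 and 3652.5 UMIs for B-like cells. The shares in phagocytes of the same libraries, 8.33%, 18.4% and 1.63%, were above both. NK/ILC1-like cells had 0.93% in HFD_EXE, 0.92% in HFD_sed and 1.14% in S, and LSEC-like cells 0.89%, 1.57% and 0.302%. In S the interval of phagocytes (1.12 to 2.30%) overlapped that of NK/ILC1-like cells (0.31 to 2.90%). Cholangiocyte-like cells, not used as a gauge, were above each of the 3 phagocyte classes. At least 3 members were found in 19 of 33, 17 of 34 and 10 of 32 of them. Lpl was found in most Kupffer-like cells, so a count of 3 in them needs only 2 further members. At least 2 members were found in 1.14%, 3.04% and 0.86% of T-like cells in HFD_EXE, HFD_sed and S. For B-like cells these shares were 0.43%, 2.25% and 0.15%. In S the T-like interval at 2 members (0.37 to 1.70%) overlapped that of phagocytes at 3 (1.12 to 2.30%), so phagocytes of S were not clear of this gauge.

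Single members were not all above that background. In Kupffer-like cells of HFD_sed, the thinned shares of Gpnmb (1.68%, against 0.34% in B-like cells), Spp1 (5.04% against 3.15%) and Fabp5 (8.12% against 5.40%) had intervals that overlapped those of B-like cells, and the other 7 members stood above. In HFD_EXE and in S 4 of 10 stood above, namely Trem2, Lpl, Mmp12 and Gdf15. Spp1 in Kupffer-like and other macrophage-like cells, and Mmp12 in monocyte-like cells taken whole, were at that background in each of the 3 libraries. They are therefore not read as expression in those classes, and nor is a difference between libraries in them. In the subset with macrophage markers of S, Mmp12 stood above it (8.11%, 1.70 to 21.9%, against 0.30% in B-like cells). There it was found in 3 of 37 thinned cells. The lowest level among the 4 non-myeloid classes was 56.7% of the Kupffer-like level for Spp1 in HFD_sed, and 51.5% for Fabp5, but 3.07% of the monocyte-like level for Spp1.

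Lpl was also set against Cd5l, since free RNA from 1 source keeps its genes in 1 ratio. In HFD_sed, T-like, B-like and LSEC-like cells had 42.9, 43.4 and 41.2 Lpl UMIs per 100 UMIs of Cd5l, a secreted-protein gene of Kupffer cells, where Kupffer-like cells had 52.0. In HFD_EXE the same classes had 26.8, 16.7 and 18.6, where Kupffer-like cells had 32.0, and in S 14.5, 14.7 and 13.8, where Kupffer-like cells had 19.3. NK/ILC1-like cells gave 81.3, 33.3 and 24.8 in HFD_EXE, HFD_sed and S, the first of these from 13 Lpl UMIs. With the lowest non-myeloid level subtracted from each class, 10 members were called higher in Kupffer-like cells in HFD_sed over S, against 16.0% of measured genes, and 8 lower in HFD_EXE over HFD_sed, against 11.1%. For Cd9 and Fabp5 the subtracted level was above the Kupffer-like level of S (276% and 120.4% of it), so S was at 0 after subtraction and no fold is given.

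Other genes of the same programme were counted from 10 further lists. Of 18 genes often named with the members (lysosomal cathepsins, galectins, lipid carriers), 16 were measured in Kupffer-like cells in HFD_sed over S, and 5 were higher and 0 lower, against 7.29% and 6.72% of all measured genes. Their median log2 ratio was 0.16. The largest was the fatty acid binding protein Fabp4, at 142 CPM in HFD_sed against 14.0 CPM in S, followed by the galectin Lgals1 (26.2 against 9.58 CPM) and the cysteine protease inhibitor Cstb (450.3 against 239 CPM). In other macrophage-like cells of HFD_EXE over HFD_sed, 8 of 16 were lower and 0 higher (median log2 ratio -0.69), against 8.94% and 8.09% of all measured genes. They included the actin-capping gene Capg, at 55.4 CPM in HFD_EXE against 173 CPM in HFD_sed, and the lysosomal protease Ctsd, at 716 against 1767 CPM. The lipid scavenger receptor Cd36 ran the other way in monocyte-like cells, at 139 CPM in HFD_sed against 308 CPM in S.

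A further list held genes of Trem2 signalling and shedding, with its adaptor Tyrobp and the kinase Syk. Of 9 measured in Kupffer-like cells, none was called in HFD_sed over S or in HFD_EXE over HFD_sed. Their median log2 ratios were 0.08 and -0.07. Of all measured genes, 7.29% were higher and 6.72% lower in the first comparison, and 9.42% and 5.87% in the second. With 9 genes, a count of 0 is near those shares. In monocyte-like cells 2 of 10 were higher in HFD_sed than in S, against 6.58% of all measured genes. They were the sheddase Adam17 (234 CPM against 107 CPM in S) and Ms4a6d (181 against 87.6 CPM). Among lysosomal and lipid regulators, 5 of 11 were higher and 1 lower in monocyte-like cells of HFD_sed over S, against 6.58% and 10.5% of all measured genes, led by the stress-response factor Atf3 (1182 against 406 CPM) and the liver X receptor Nr1h3 (153 against 57.7 CPM). Atf3 was at 504 CPM in monocyte-like cells of HFD_EXE against 1182 CPM in HFD_sed. In other macrophage-like cells it was the reverse, with 767 CPM in HFD_EXE against 420.3 CPM in HFD_sed.

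Relatives of single members differed in their direction. Among fatty acid binding proteins in Kupffer-like cells, Fabp7 was at 686 CPM in HFD_sed against 1131 CPM in S, below it, where Fabp4 was above. Among metalloproteinases and inhibitors, 3 of 7 were higher and 1 lower in the same comparison (7.29% and 6.72% of all measured genes), with the collagenases Mmp8 (17.8 against 1.69 CPM) and Mmp13 (18.9 against 2.23 CPM) leading. In other macrophage-like cells Mmp13 had 109 CPM in HFD_EXE and 267 CPM in HFD_sed, against 87.4 CPM in S. Mmp8 is also a neutrophil granule gene, and the 7 neutrophil markers together had 476 CPM in HFD_EXE and 592 CPM in HFD_sed, against 166 CPM in S, in Kupffer-like cells, and their part in the Mmp8 values was not tested. Of the 8 other tetraspanins, 0 were higher and 2 lower in Kupffer-like cells in HFD_sed over S (Cd37 and Tspan4), against 7.29% and 6.72% of all measured genes. In monocyte-like cells 0 were higher and 4 lower in that comparison, against 6.58% and 10.5%. Cd9 and Cd63 were higher in both classes. Of 3 measured beta2 integrin genes beside Itgax, 1, Itgam, was higher in Kupffer-like cells in HFD_sed over S (80.6 against 47.8 CPM), where 7.29% of all measured genes were higher. None of 7 osteopontin receptor genes was called in Kupffer-like cells in that comparison, against 7.29% higher and 6.72% lower of all measured genes.

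Gdf15 is a known target of the integrated stress response. Of 6 integrated stress response genes measured in Kupffer-like cells in HFD_sed over S, 0 were higher and 1 lower, against 7.29% and 6.72% of all measured genes. The lower one was Sesn2, at 33.6 CPM in HFD_sed against 50.8 CPM in S. In HFD_EXE over HFD_sed, where Gdf15 was lower, the cell cycle inhibitor Cdkn1a had 243 CPM in HFD_EXE against 41.3 CPM in HFD_sed, and Sesn2 96.9 against 33.6 CPM. Of 5 measured Lpl partners in Kupffer-like cells of HFD_sed over S, 0 were higher and 2 lower, against the same 7.29% and 6.72%. They were the lipase inhibitor Angptl4 (5.40 against 19.5 CPM) and Apoa5 (6.17 against 21.9 CPM), a gene of hepatocytes. The 7 hepatocyte markers together had 493.5 CPM in these Kupffer-like cells against 909.3 CPM in S, and their part was not tested.

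The genes most like the members were sought in 2 ways, both as descriptions. Over 27 points (9 classes in 3 libraries), the level of Pgam1, a glycolytic enzyme, followed the mean profile of the members most closely among 6850 genes (Pearson r = 0.94 on log2(CPM + 1)), followed by Bcl2a1a, Ly6i, Lyz2, Atox1, Cstb, Pgk1, Fam20c, Ube2a and Saa3 at 0.86 or more. The members themselves correlated with that mean at 0.38 for Cd9 to 0.84 for Spp1. Points of 1 library share its depth and free RNA. Classes with fewer than 100 cells in a library were left out, among them other macrophage-like, dendritic-like and cholangiocyte-like cells. These are the classes in which Trem2, Mmp12, Gdf15, Itgax, Spp1 and Cd63 were highest, so the profile does not cover them. In phagocytes thinned to 2000 UMIs, cells with at least 3 members (70, 361 and 32 in HFD_EXE, HFD_sed and S) were set against cells with none (110, 494 and 391), and 10 genes were highest in all 3 libraries by the smallest interval bound. They were Il1rn, Cstb, Fth1, Prdx1, Ccl4, Cxcl2, Clec4n, Anxa4, Cxcl16 and Clec7a. Il1rn, which encodes the interleukin-1 receptor antagonist, was 6.98 times higher in such cells in HFD_EXE, 7.97 times in HFD_sed and 12.2 times in S. The 2 sets of cells differ in class: 215 of the 361 in HFD_sed were monocyte-like, and 287 of the 391 cells with none in S were Kupffer-like.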

How the data were processed

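Raw UMI counts per gene and cell barcode were used as deposited by the authors, who made them with Cell Ranger 6.1.2 on GRCm39, per the submitters' processing notes; the labels' protocols give the 10x 3′ v3 kit and 5000 to 6000 captured cells a sample, against 11280, 11752 and 11660 barcodes in HFD_EXE, HFD_sed and S. The filters on cells were a minimum of 500 UMIs and of 300 detected genes, and a mitochondrial share below 15%. Doublets were scored with Scrublet; its automatic threshold marked 0 cells in HFD_EXE, so 1 threshold (0.219, the mean of those of HFD_sed and S, set after seeing them) was used, which removed 295, 328 and 403 cells. Cells were clustered (Scanpy 1.11.5, leidenalg 0.10.2, 2000 variable genes, members left out), phagocytes a second time, and named from fixed markers with score rules set after the clusters were seen; 5 phagocyte sub-clusters with markers of another lineage stayed unnamed (1.81%, 1.98% and 2.55% of kept cells in HFD_EXE, HFD_sed and S). CPM is the sum of a gene's UMIs over a class per 1000000 UMIs, with an exact Poisson interval; ratios have an exact conditional binomial interval and shares an exact Clopper-Pearson one, all at 95%. A level of 0 was set to a limit of 3 counts. The interval code was checked on simulated counts. All 10 members are reported in every comparison; of each further list, its counts and up to 3 genes with the largest interval bound. Members and lists were chosen with earlier results of these data known. Near copies in kept cells held at most 6 UMIs (Fabp5l2), 55 (Cd63-ps) and 1 (Cd9-ps) a library, and reads shared with them may be uncertain. Depth limits the shallow HFD_sed Kupffer-like cells most.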

Additional observations from a re-analysis of the deposited data

Results flagged for a closer look

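Several members differed in opposite directions in 2 phagocyte classes under the same comparison; none of these differences was tested, since each group has 1 library. In HFD_sed over S, Trem2 had a log2 ratio of 0.96 in Kupffer-like cells and -1.15 in other macrophage-like cells, 2.11 apart. Itgax had 2.25 and -0.68 in the same classes, 2.93 apart, and the second value was 0.41 at clustering resolution 2.0. Mmp12 had 3.14 in Kupffer-like and -3.25 in monocyte-like cells, 6.39 apart. The second value was -0.12 without the cells with most Mmp12, since 1 cell of S held 232 of its 256 UMIs. Mmp12 in monocyte-like cells taken whole was at the background of B-like cells in the 3 libraries. The value of -3.25 is therefore not read as a difference in expression. In the subset with macrophage markers of S, Mmp12 was above that background. In HFD_EXE over HFD_sed, Cd9 had -0.99 in Kupffer-like and 1.08 in other macrophage-like cells, a difference of -2.07. Itgax in that comparison had -2.65 in Kupffer-like cells, against 0.74 in monocyte-like cells (a difference of -3.39) and 1.09 in other macrophage-like cells (a difference of -3.74).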

How the results depend on the processing

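No paired analysis was possible because each group has 1 library, and no replicate could be left out. Of 555 values of single members under other settings, 424 lay within the counting interval of the main value and 121 moved out of it. The remaining 10 had the opposite sign to a member called in the main comparison. Sign changes of members not called there were not counted as reversals, and the cause was not tested. Within classical monocyte-like cells, Cd63 (-0.12), Lpl (-0.11) and Mmp12 (0.062) were counted as reversed in HFD_sed over S. In HFD_EXE over HFD_sed so were Gpnmb (0.49), Spp1 (0.41), Fabp5 (0.35) and Itgax (-1.25), all log2 ratios. Gpnmb was not found in these cells of HFD_EXE, so 0.49 is a bound at 3 counts and not a measured reversal. Mmp12 was not found in these cells of S, so 0.062 is such a bound too. Within nonclassical ones Lpl (-0.27) and Mmp12 (0.094, again a bound at 3 counts) reversed in HFD_sed over S. At clustering resolution 2.0 Itgax reversed in other macrophage-like cells in the same comparison (0.41). Members called in monocyte-like cells in HFD_sed over S, 6 in all, were 2 of 6 measured within classical cells and 2 of 6 within nonclassical cells, all higher. Of all measured genes 4.99% were higher and 5.19% lower in classical cells, and 5.14% and 5.48% in nonclassical cells. In the subset with macrophage markers 3 members were higher and 5 lower, against 7.48% and 8.77%. In HFD_EXE over HFD_sed, 4 became 2 at a fold of 2, where 3.67% of all measured genes were higher and 1.76% lower. Within classical cells 1 of 6 measured members was higher, against 3.28% of genes, and within nonclassical cells 1 of 6 was lower, against 5.03%. In other macrophage-like cells of that comparison 8 became 4 at resolution 2.0, where 3.72% of all measured genes were higher and 1.62% lower. The share of phagocytes with at least 3 members in HFD_EXE, HFD_sed and S was 3.24%, 10.8% and 0.571% thinned to 1000 UMIs, 19.4%, 40.7% and 12.6% unthinned, 3.69%, 9.34% and 0.715% without Cd9, Cd63 and Itgax, and 3.81%, 11.6% and 0.613% without Lpl. At least 2 members were in 31.8%, 39.5% and 13.02%. Pairs at 1.5 times the expected number, 9 in Kupffer-like cells of HFD_sed, were 0 at resolution 0.5, 2 thinned to 1000 UMIs and 21 unthinned. The 16 of other macrophage-like cells were 10 at resolution 2.0, 10 thinned to 1000 UMIs and 4 unthinned. Shallow cells and small classes limit the rest: the other macrophage-like cells of S number 45.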

Other observations

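Neutrophil-like cells carried part of the set, in a pattern of their own. Cd9 had 504 CPM in HFD_EXE and 2347 CPM in HFD_sed, against 355 CPM in S, and was found in 56.1%, 83.8% and 41.6% of their thinned cells. Cd63 had 138 CPM in HFD_EXE and 442 CPM in HFD_sed, against 128 CPM in S, and Gdf15 6.12 CPM and 143 CPM, against 2.38 CPM. Trem2 was at 1.53 CPM in HFD_EXE and 1.57 CPM in HFD_sed, against 3.81 CPM in S, and Lpl at 9.69, 33.0 and 20.02 CPM, and the intervals of their detection shares in neutrophil-like cells did not lie above those in B-like cells. Gpnmb had 95 UMIs in neutrophil-like cells of HFD_sed, 29 of them in 1 cell and 84.2% in 5 of the 480 cells. At least 3 members were found in 5.83% of thinned neutrophil-like cells of HFD_EXE (4.07 to 8.05%) and 21.9% of HFD_sed (17.8 to 26.3%), against 3.44% of S (2.17 to 5.17%).

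LSEC-like cells, the lining cells of the sinusoid, had 253 CPM of Fabp5 in HFD_EXE and 622 CPM in HFD_sed, against 132 CPM in S, and held 75.9%, 52.0% and 63.7% of the Fabp5 UMIs of kept cells. Their Cd9 ran the other way, at 200.4 CPM in HFD_EXE and 78.4 CPM in HFD_sed, against 180.2 CPM in S. NK/ILC1-like cells had 235 CPM of Itgax in HFD_EXE and 177 CPM in HFD_sed, against 151 CPM in S, above each of the 3 phagocyte classes taken whole in all 3 libraries. Hepatocyte-like cells, which remained in the preparations, had 101 CPM of Gdf15 in HFD_EXE and 123 CPM in HFD_sed, against 26.0 CPM in S.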
